A study of Mus musculus with 5 samples.

Results

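Ppp1r16b and the myosin phosphatase subunits are 8 mouse genes that encode the MYPT family of targeting subunits of protein phosphatase 1 (PP1) and the PP1 catalytic subunits. They were found by gene symbol among the 54532 gene IDs of a kidney RNA-seq count table, where each symbol matched 1 row, and all 8 passed the filter on low counts. The targeting subunits are Ppp1r16b, Ppp1r16a, Ppp1r12a, Ppp1r12b and Ppp1r12c, and the catalytic subunits are Ppp1ca, Ppp1cb and Ppp1cc. Kidneys came from male wild-type C57BL/6J mice, 8 weeks old, an inbred laboratory strain. The 3 vehicle samples were from mice injected intraperitoneally with vehicle each day for 3 days. The 2 DMXAA samples were from mice given 10 mg/kg of DMXAA, a small molecule that activates mouse STING, by the same route and schedule, and all tissue was labelled day 3. The labels number the samples as replicates without saying that each is a separate mouse, so every p-value measures only the spread between these samples, which may be technical.

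PP1 is a serine/threonine phosphatase whose catalytic subunit finds its substrates through targeting subunits. In the classical myosin phosphatase, PP1 beta is bound to MYPT1, the product of Ppp1r12a, and removes phosphate from myosin regulatory light chain, which relaxes smooth muscle and loosens actomyosin tension in other cells. Ppp1r16b encodes TIMAP, a prenylated membrane-bound member of the family known mainly from endothelial cells, among them those of the glomerulus, where it acts on barrier proteins such as moesin.

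Ppp1r16b had the widest difference between the 2 groups among the members. Its level was 50.5, 65.0 and 66.3 CPM (read counts scaled to library size and composition) in vehicle libraries 1 to 3, and 122 and 164 CPM after DMXAA libraries 1 and 2. Every DMXAA value lay above every vehicle value, as for 13.7% of all genes tested, and the DMXAA libraries also differed from each other. The raw counts behind these levels were 934, 1144 and 1195 in vehicle and 2199 and 3299 in DMXAA. The group means were 60.6 ± 8.78 CPM (SD, n = 3) and 143 ± 29.8 CPM (SD, n = 2), a ratio of 2.36. On the log2 scale the edgeR fit gave a difference of 1.24 (SE 0.17, 95% interval 0.84 to 1.64). Ppp1r16b was taken up because of its difference between these same libraries, so its fold change is a description and supports nothing further.

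The gene lies on the plus strand of chromosome 2, from 158665398 to 158766334 on mm10, with identifier ENSMUSG00000037754. The RefSeq promoter table (build GRCm38.p6, the same assembly) holds a pair of start sites for it and windows of 250 bases before to 50 bases after each start. The stretches of these windows that hold no exon annotated by GENCODE M21 are shown because Ppp1r16b is the gene with the widest difference between groups. Both stretches lie inside the annotated gene, after its outermost start at 158665398, in introns of the transcripts that begin there, and the first ends directly before an exon of those transcripts. The first, chr2:158666483-158666629, plus strand, lies before the start at 158666733, and capitals mark the letters AGGAAG, the core of an ETS-type motif, on either strand.
Ppp1r16b stretch 1: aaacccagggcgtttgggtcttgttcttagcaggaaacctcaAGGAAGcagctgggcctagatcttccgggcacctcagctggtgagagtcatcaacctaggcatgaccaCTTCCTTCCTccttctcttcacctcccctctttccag
The second, chr2:158666885-158667118, plus strand, lies after that start and before the one at 158667135, and it holds none of the motifs searched.
Ppp1r16b stretch 2: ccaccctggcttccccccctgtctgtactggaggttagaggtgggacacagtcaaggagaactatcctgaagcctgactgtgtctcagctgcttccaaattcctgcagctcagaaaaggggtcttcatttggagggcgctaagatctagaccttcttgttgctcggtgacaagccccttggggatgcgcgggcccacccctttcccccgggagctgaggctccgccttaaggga

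ETS factors are known regulators of endothelial genes. The AGGAAG letters occurred 3 times in the first window, of which 2 overlapped each other, and were absent from the second. The 2 overlapping matches lie in a run rich in C and T that ends an intron, directly before the next exon. In all 32851 windows of the table, 35.4% held at least 1 such match on either strand, so a match is common. The interferon-response core of GAAA, any 2 bases and GAAA (3.44% of all windows), the STAT-type motif TTCNNNGAA (8.30%), the NF-kB-type motif of GGGA, any 4 bases and CC (20.7%), the GC box GGGCGG (35.7%), TATAAA (13.6%) and CACGTG (7.15%), searched on both strands, had no match in either Ppp1r16b window. A match is a description of letters and not a binding site, and its absence speaks only of these windows. The Ppp1r16b windows held 6 and 12 CpG dinucleotides, against a median of 7 over all windows. The windows of Ppp1r12c and Ppp1cb held 31 each, that of Ppp1r12a 40 and that of Ppp1cc 42. The windows of Ppp1r12b, whose start sites lie far apart, held 8 and 16. Of the 8 members, 6 had a window in the table, and Ppp1r16a and Ppp1ca did not.

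**Figure D1:**
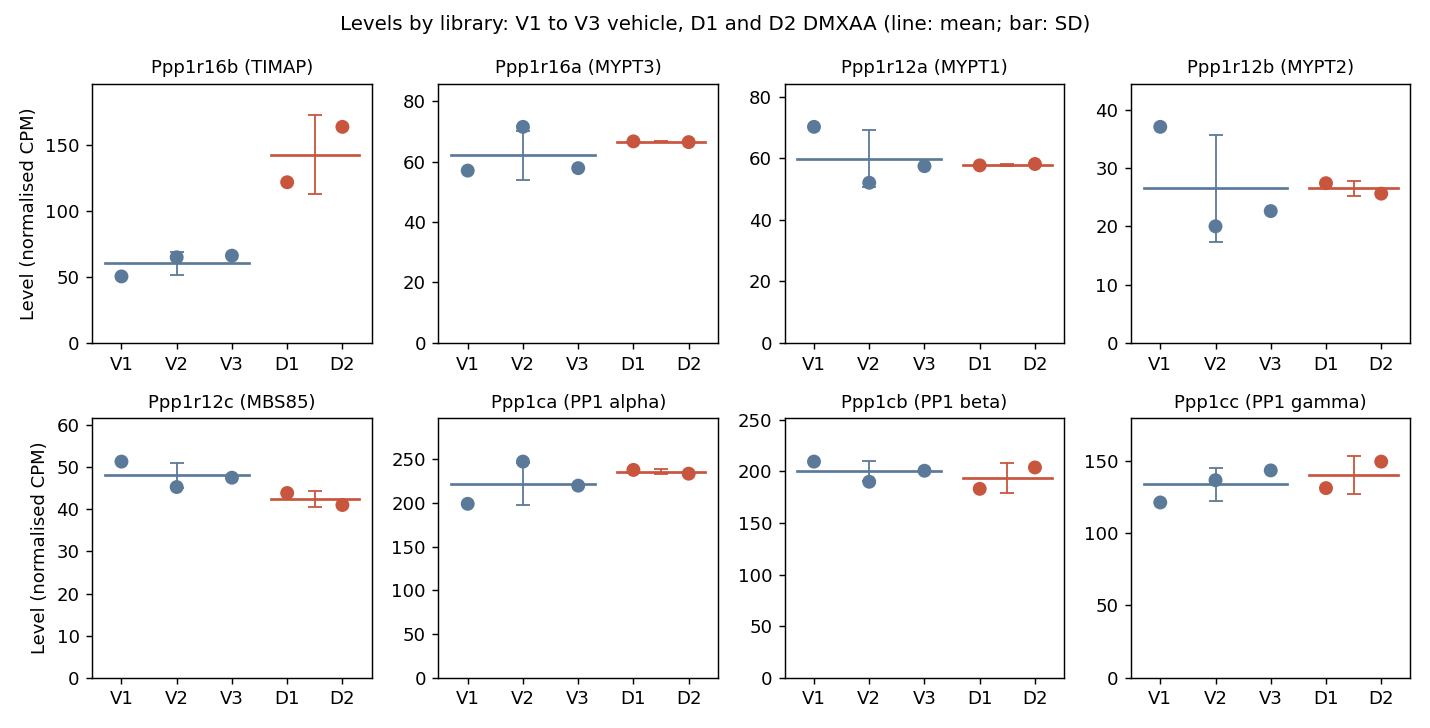
Level of each member in normalised CPM (vertical axes from 0) in each vehicle (V1 to V3, blue) and DMXAA (D1, D2, red) library, where points are libraries, horizontal lines group means and bars SD. Ppp1r16b is at 122 and 164 CPM after DMXAA against 50.5 to 66.3 CPM in vehicle. Of the 8 members, only Ppp1r16b and Ppp1r12c have groups that do not overlap, against 26% of all genes tested.

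None of the other 7 members was called. Over the whole table edgeR's quasi-likelihood test called 0 of 16226 genes (0%) at a Benjamini-Hochberg adjusted p below 0.05, with 1062 genes (6.55%) at an unadjusted p below 0.05, and DESeq2 called 55 (0.381% of the genes to which it gave an adjusted p). Ppp1r16b had an adjusted p of 0.535 in edgeR, where its unadjusted p was rank 4 of all genes tested. In DESeq2 it had an adjusted p of 2.59e-06, with the smallest unadjusted p of any gene there. In edgeR without an expression filter it had an adjusted p of 0.00198. DESeq2 no longer called it without DMXAA library 2, where the log2 difference was 1.01 and the adjusted p 0.235. The edgeR adjusted p of the other 7 members ran from 0.753 to 0.999, and the smallest of these belonged to Ppp1r12c.

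Among targeting subunits, the closest relative of TIMAP did not share its pattern. Ppp1r16a encodes MYPT3, also prenylated, and lies on chromosome 15 from 76671615 to 76694919. It was at 57.0, 71.5 and 57.8 CPM after vehicle, against 66.7 and 66.5 CPM after DMXAA. The DMXAA values lay inside the vehicle range. The log2 difference was 0.10 (SE 0.12), and the 95% interval, -0.19 to 0.39, leaves room for modest change in either direction. That interval lies below the estimate for Ppp1r16b, which was chosen for its difference.

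Ppp1r12a, which encodes MYPT1 of the classical myosin phosphatase, lies on chromosome 10 from 108162193 to 108284475. It was at 70.2, 52.0 and 57.4 CPM after vehicle against 57.7 and 58.1 CPM after DMXAA, again inside the vehicle range. The log2 difference was -0.05 (SE 0.14, 95% interval -0.37 to 0.28), and it was 0.075 without vehicle library 1. Ppp1r12c encodes MBS85 and lies on chromosome 7 from 4481520 to 4501680. It was at 51.4, 45.3 and 47.5 CPM after vehicle, against 43.9 and 41.0 CPM after DMXAA. Both DMXAA values were below all vehicle values, as they were for 12.3% of the genes tested, while both were above for 13.7%. The log2 difference of Ppp1r12c was -0.18 (SE 0.10, 95% interval -0.41 to 0.05), and -0.091 with an offset for transcript length and GC content.

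Ppp1r12b encodes MYPT2, best known from heart and skeletal muscle, and lies on chromosome 1 from 134754658 to 134955942. It was at 37.1, 20.01 and 22.6 CPM after vehicle against 27.4 and 25.6 CPM after DMXAA, so vehicle library 1 alone stood above the DMXAA pair. The log2 difference was -0.0041 (SE 0.26, 95% interval -0.62 to 0.61), the widest interval of the family, and it was 0.31 without vehicle library 1. Most of the 12 smooth muscle and pericyte markers were highest in that same library, but Tagln, Pdgfrb and Notch3 were not. The contractile actin Acta2 was at 91.2 CPM there and at 31.4 and 25.7 CPM in the other vehicle libraries, with 27.1 and 35.2 CPM after DMXAA. The smooth muscle myosin Myh11, named after its values were seen, was at 82.8 CPM in vehicle library 1 and at 25.1 to 31.6 CPM in the other 4 libraries. The part of this library's composition in the Ppp1r12b value was not tested. In whole-kidney RNA, more cells of a type and more RNA per cell cannot be told apart.

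The catalytic subunits, which are near-identical proteins and act with many targeting subunits, overlapped between the groups in all 3 cases. Groups that did not overlap were found for 26% of all genes tested. Ppp1ca (chromosome 19, 4192065 to 4195420) was at 199, 247 and 220 CPM after vehicle against 238 and 233 CPM after DMXAA, a log2 difference of 0.09 (SE 0.12, 95% interval -0.19 to 0.36). Ppp1cb (chromosome 5, 32458843 to 32517433), the catalytic partner of MYPT1 and of TIMAP, was at 210, 190 and 201 CPM after vehicle against 183 and 204 CPM after DMXAA. Its log2 difference was -0.05 (SE 0.10, 95% interval -0.29 to 0.19). Ppp1cc (chromosome 5, 122158278 to 122175273) was at 121, 136 and 143 CPM after vehicle against 131 and 149 CPM after DMXAA, a log2 difference of 0.07 (SE 0.11, 95% interval -0.20 to 0.34). The signs for Ppp1cb and Ppp1cc turned when single libraries were left out. Strand use in counting is not given in the sources used here, and Rad9a overlaps the end of Ppp1ca on the other strand, with 134 to 159 counts a library against 3678 to 4690 for Ppp1ca.

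Levels of different genes can be set side by side only per length. In CPM per kilobase of merged exons, the vehicle order among targeting subunits was Ppp1r16a (15.1 ± 1.98, SD, n = 3), Ppp1r12c (9.69 ± 0.617), Ppp1r12a (7.46 ± 1.163), Ppp1r16b (6.85 ± 0.992) and Ppp1r12b (1.77 ± 0.614). The neighbours Ppp1r12a and Ppp1r16b overlapped, at 6.49 to 8.75 and 5.71 to 7.49, as did no other neighbouring pair. In DMXAA, Ppp1r16b was at 13.8 and 18.6 CPM per kilobase and Ppp1r16a at 16.2 and 16.1, so TIMAP and MYPT3 transcripts were at like levels, and Ppp1r12c (8.85 and 8.27), Ppp1r12a (7.19 and 7.25) and Ppp1r12b (1.83 and 1.71) followed. With the longest transcript as the length, the vehicle order was the same, Ppp1r12a (10.3 to 13.9) no longer overlapped Ppp1r16b (7.55 to 9.91), and in DMXAA Ppp1r16b was at 18.3 and 24.6 and Ppp1r16a at 23.6 and 23.5. Among catalytic genes the vehicle order was Ppp1ca (88.0 ± 9.61), Ppp1cc (39.0 ± 3.32) and Ppp1cb (18.3 ± 0.897), with no overlap between neighbours.

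Summed over the 5 targeting subunits, the level was 41.1, 41.7 and 39.8 CPM per kilobase in vehicle and 47.9 and 51.9 in DMXAA. Without Ppp1r16b the sum of the other 4 was 35.4, 34.3 and 32.3 in vehicle and 34.1 and 33.4 in DMXAA, inside the vehicle range. Ppp1r16b made up 13.9, 17.6 and 18.8% of the summed targeting transcripts in vehicle and 28.8 and 35.7% in DMXAA. The catalytic sum was 133, 155 and 147 CPM per kilobase in vehicle and 149 and 155 in DMXAA. Within that sum, Ppp1cb made up 12.7 ± 1.60% in vehicle (SD, n = 3) and 11.7 ± 0.583% in DMXAA (SD, n = 2). These shares are of transcripts and not of protein complexes.

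**Figure D2:**
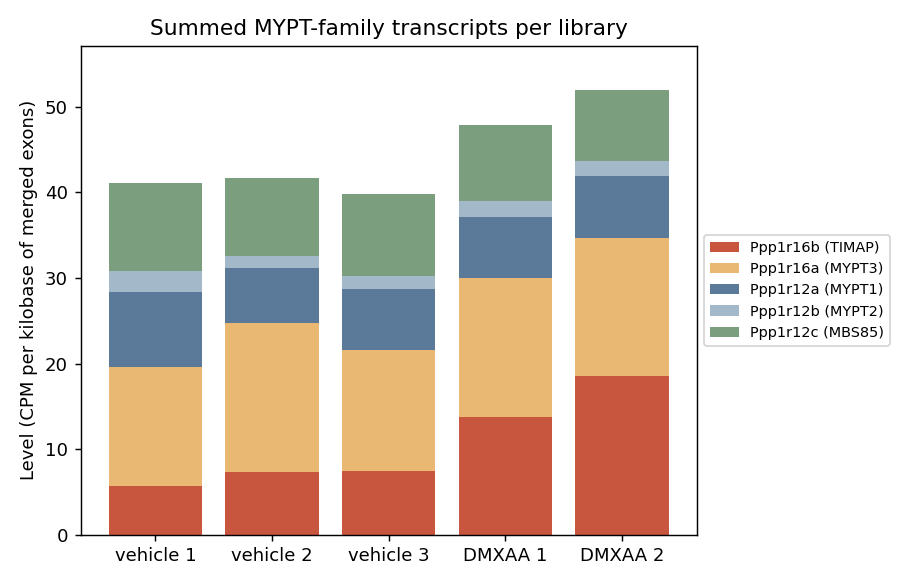
Stacked levels of the 5 targeting subunits in CPM per kilobase of merged exons (vertical axis from 0) in each library. The red Ppp1r16b segment is 5.71 to 7.49 in vehicle and 13.8 and 18.6 in DMXAA, while the sum of the other segments stays between 32.3 and 35.4.

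Because TIMAP is best known from endothelium, Ppp1r16b was set beside cell type markers in the same libraries. The 21 endothelial markers had a median log2 difference of 0.16, against -0.01 over all 16226 genes tested, and a range of -1.163 to 0.45. Ppp1r16b lay above that range, but it was chosen for its difference and the markers were not. Of these markers, 15 had estimates above 0, 2 were higher and 1 lower at an unadjusted p below 0.05 (background 3.89% higher and 2.65% lower), and edgeR and DESeq2 called 0. The receptor kinase gene Tie1 was at 42.7 ± 7.29 and 58.4 ± 5.88 CPM after vehicle against DMXAA, and the angiopoietin receptor gene Tek at 49.7 ± 13.6 and 67.9 ± 0.729 CPM. The VEGF receptor gene Kdr was at 80.5 ± 8.73 and 97.7 ± 0.549 CPM. The secreted vascular gene Egfl7 was in the other direction, at 40.1 ± 0.645 and 34.2 ± 2.42 CPM. Without vehicle library 2 the log2 difference fell from 0.45 to 0.32 for Tie1, 0.45 to 0.24 for Tek and 0.28 to 0.19 for Kdr. That of Egfl7 stayed at -0.23. The median log2 deviation of the 21 markers from their own means was 0.13, -0.45 and 0.04 in vehicle libraries 1 to 3. It was 0.11 and 0.16 in the DMXAA libraries, so vehicle library 2 stood low.

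The summed endothelial markers were at 1151, 712 and 1055 CPM after vehicle against 1067 and 1165 CPM after DMXAA, with vehicle library 2 low. Relative to that sum, Ppp1r16b stood at 4.39, 9.13 and 6.28% in vehicle and 11.4 and 14.1% in DMXAA. The mean ratio was 1.93 times higher in DMXAA. Ppp1r16b was chosen for its separation of these same libraries, and a ratio to a marker sum carries that separation over, so it is no test of the share of endothelial cells.

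TIMAP transcripts are also found in lymphocytes. Of the 14 lymphocyte markers, 12 were tested, 10 of them with estimates below 0, at a median of -0.29. Their sum was 36.5, 38.1 and 53.9 CPM after vehicle against 48.6 and 30.3 CPM after DMXAA. DMXAA library 1 was above 2 of the 3 vehicle libraries and DMXAA library 2 below all of them, and the part of lymphocytes in the Ppp1r16b level was not tested. The B cell gene Ms4a1 was at 0.613 ± 0.214 CPM after vehicle against 0.164 ± 0.161 CPM after DMXAA, and the T cell receptor chain gene Cd3g at 1.31 ± 0.400 and 0.640 ± 0.272 CPM. Both rest on few reads, with 39 counts for Ms4a1 and 95 for Cd3g over all 5 libraries, and Ms4a1 was at 0.0497 CPM in DMXAA library 2.

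Smooth muscle and pericyte markers summed to 409, 240 and 273 CPM after vehicle against 286 and 303 CPM after DMXAA, with a median log2 difference of -0.04 over 11 tested genes and 0 below an unadjusted p of 0.05. Fat and urothelium transcripts were high in vehicle library 1. There the 8 adipocyte markers summed to 683 CPM, against 29.1 to 58.1 CPM in the other 4 libraries, with Adipoq at 36.8 CPM there and at 0 counts in both DMXAA libraries. The 9 urothelial markers summed to 271 CPM in that library against 104 to 140 CPM elsewhere, and Krt19 was at 27.2 CPM there against 0.846 to 3.05 CPM. Ppp1r16b was lowest in this library, and without it the log2 difference was 1.12 (SE 0.15). The labelled tissue was borne out by the tubule endocytic receptor Lrp2 (1755 to 2417 CPM), the glucose transporter Slc5a2 (194 to 363 CPM) and the podocyte gene Nphs1 (19.6 to 27.1 CPM) in all 5 libraries. These kidney markers had a median log2 difference of 0.20 over 12 genes, with 5 of 12 above all vehicle libraries (background 13.7%), and DESeq2 called Slc5a2 (adjusted p 0.0173). Relative to the summed kidney markers, Ppp1r16b was at 0.427, 0.506 and 0.464% in vehicle and 0.852 and 1.06% in DMXAA, a ratio that carries over the separation for which the gene was chosen. The part of these marker differences in the Ppp1r16b result was not tested.

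**Figure D3:**
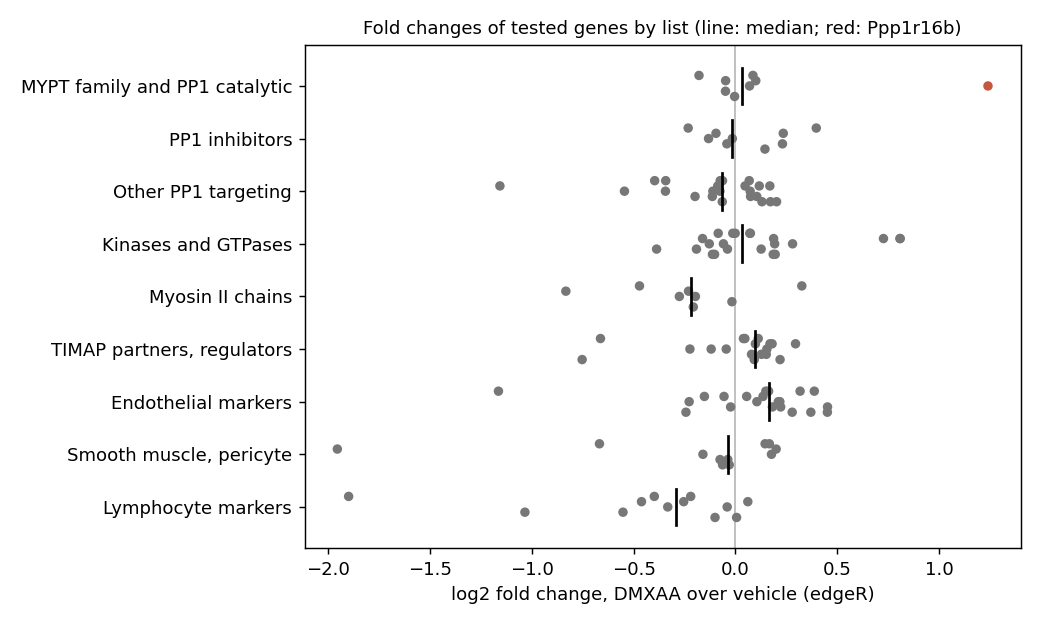
Log2 fold change of DMXAA over vehicle (horizontal axis) for the tested genes of each list, where points are genes and black lines list medians. Ppp1r16b (red), which was chosen for its difference between these libraries, is at 1.24. The endothelial markers reach 0.45, and the other 7 members lie between -0.18 and 0.10.

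The rest of the PP1 and myosin pathway was described from lists of genes chosen by function. PP1 inhibitors had a median log2 difference of -0.02 over 9 of 11 genes that passed the filter, with 0 below an unadjusted p of 0.05 in either direction. Ppp1r1b, which encodes the PP1 inhibitor DARPP-32, was at 78.7 ± 16.3 CPM after vehicle against 104 ± 5.51 CPM after DMXAA. Ppp1r11, which encodes inhibitor-3, was at 32.0 ± 2.38 and 27.2 ± 0.431 CPM. These 2 of 9 genes had groups that did not overlap, in opposite directions, near the share of 26% over all genes tested.

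Other PP1 targeting subunits had a median of -0.06 over 23 of 26 genes, with 10 estimates above 0, 13 below, and 0 below an unadjusted p of 0.05. Ppp1r15b, which directs PP1 to the translation factor eIF2 alpha, was at 110 ± 2.13 and 121 ± 2.84 CPM. Phactr4, an actin-binding PP1 subunit, was at 68.7 ± 4.96 and 77.4 ± 1.89 CPM. Ppp1r9a, which encodes neurabin, was at 27.0 ± 5.44 and 21.3 ± 1.88 CPM with overlapping groups. The glycogen-targeting subunit gene Ppp1r3c was at 6.33 CPM in vehicle library 1 and at 1.09 to 1.61 CPM in the other 4 libraries, so its log2 difference of -1.156 (SE 0.77) became -0.0058 without that library.

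Kinases and GTPases that act on MYPT or on myosin light chain had a median of 0.03 over 22 of 24 genes, 11 above 0 and 11 below. At an unadjusted p below 0.05, 2 of 22 were higher (background 3.89%) and 0 lower (2.65%), and 6 of 22 lay above all vehicle libraries (13.7%). These were not called by edgeR or DESeq2. Cit, the citron kinase of cytokinesis, was at 8.33, 4.83 and 6.77 CPM after vehicle against 11.6 and 11.7 CPM after DMXAA. The cardiac light chain kinase gene Mylk3 was at 2.54, 3.07 and 2.496 CPM after vehicle against 3.88 and 5.57 CPM after DMXAA. Cdc42bpa, a kinase that phosphorylates MYPT1, was at 75.2 ± 3.75 and 86.1 ± 1.26 CPM, and the death-associated kinase gene Dapk1 at 65.7 ± 11.3 and 79.8 ± 3.86 CPM. The smooth muscle light chain kinase gene Mylk, named after its values were seen, had a log2 difference of -0.08 (SE 0.23), and its groups overlapped.

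Myosin II chains had estimates below 0 for 7 of 8 genes, with a median of -0.22 and 0 below an unadjusted p of 0.05. Vehicle library 1 stood above the rest, with a summed level of 1141 CPM where the others had 835 to 885 CPM. The nonmuscle heavy chain gene Myh10 was at 142 CPM in that library against 57.1 to 73.6 CPM elsewhere, and the light chain gene Myl9 at 79.1 against 31.7 to 45.9 CPM, both named after their values were seen. The log2 difference of Myh11 was -0.83 with that library and -0.12 without it. The light chain gene Myl6 was at 402 ± 28.6 CPM after vehicle against 343 ± 1.59 CPM after DMXAA. The nonmuscle heavy chain gene Myh14 was at 49.7 ± 3.87 and 41.1 ± 4.62 CPM, and the regulatory light chain gene Myl12a at 74.6 ± 4.10 and 64.6 ± 2.77 CPM. The groups of these 3 genes did not overlap, 3 of 8 lower against 12.3% of all genes tested. Myl12b was the gene above 0, at 4.71 ± 0.149 and 5.91 ± 0.583 CPM. Its groups did not overlap either, 1 of 8 higher against 13.7% of all genes tested. The near-identity of Myl12b to Myl12a makes both levels uncertain.

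Genes reported to act with TIMAP, on it or under it had a median of 0.10 over 18 genes, 13 above 0, with 1 higher and 0 lower at an unadjusted p below 0.05, and edgeR and DESeq2 called 0. Msn, which encodes moesin, was the gene below that threshold, at 195, 211 and 203 CPM after vehicle against 235 and 263 CPM after DMXAA. Both DMXAA values lay above the vehicle range, with a log2 difference of 0.29 (SE 0.10). The endothelin-converting enzyme gene Ece1 was at 82.8 ± 2.07 and 93.1 ± 1.38 CPM, and the TGF-beta receptor gene Tgfbr1 at 76.2 ± 3.20 and 86.3 ± 1.76 CPM. The laminin receptor and ribosomal gene Rpsa was at 540 ± 49.9 and 463 ± 7.68 CPM, with ribosomal pseudogene copies that make its level uncertain. Of these 18 genes, 6 were above all vehicle libraries (background 13.7%) and 1 below (12.3%).

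The genes nearest to Ppp1r16b in pattern were ranked by the root mean square difference between log2 levels over the 5 libraries, each gene centred on its own mean. The nearest of 16225 genes was Ccl5, a chemokine that attracts T cells, with a difference of 0.07 on the log2 scale. C1ra, which encodes a complement C1 protease, followed at 0.15, then the interferon-inducible DNA-sensor family gene Ifi204 at 0.17, Fbxw15 at 0.17 and the long noncoding RNA gene Gm3137 at 0.17. Ccl5 was at 3.03, 4.04 and 4.05 CPM after vehicle against 6.77 and 10.4 CPM after DMXAA, so like Ppp1r16b it was lowest in vehicle library 1 and highest in DMXAA library 2. C1ra was at 23.0, 28.4 and 29.1 CPM after vehicle against 51.1 and 55.7 CPM after DMXAA. Fbxw15 was at 0.378, 0.569 and 0.610 CPM after vehicle against 1.55 and 1.64 CPM after DMXAA. Its vehicle levels rest on few reads, as the limit for a gene with no reads was 0.149 to 0.171 CPM by library. None of the other members was among these 5. Ppp1cc, Ppp1r16a and Ppp1ca each differed from Ppp1r16b by 0.58, with 19.5%, 20.8% and 21.03% of the genes nearer than they were. Ppp1cb differed by 0.66, with 48.3% nearer. Ppp1r12a (0.69, 60.3% nearer), Ppp1r12c (0.74, 71.5%) and Ppp1r12b (0.74, 72.7%) were the farthest members. The 5 nearest genes were picked for their likeness, so their sharing of the pattern follows from that choice. These distances rest on 5 libraries that share 2 groups and are a description.

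**Figure D4:**
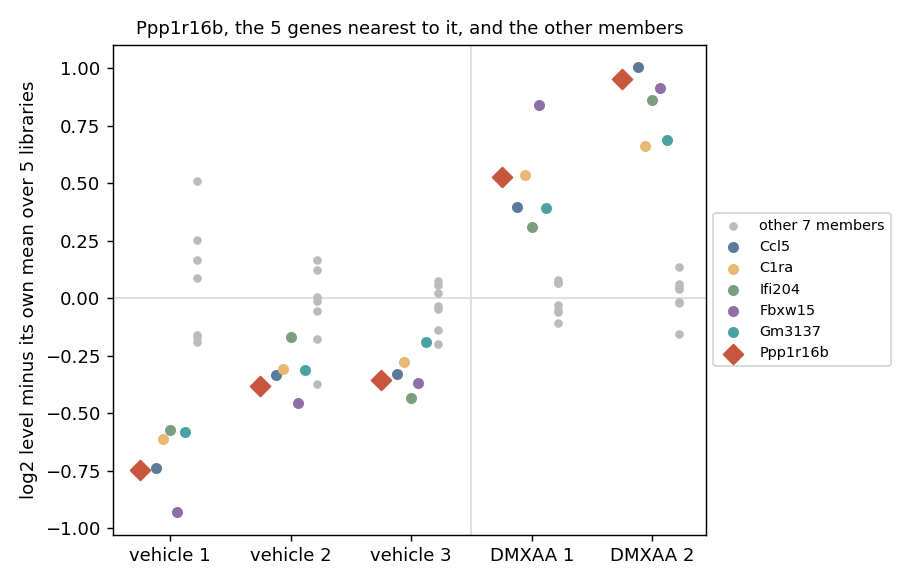
Log2 level minus the gene's own mean over the 5 libraries (vertical axis) for Ppp1r16b (red diamonds), the 5 genes nearest to it (coloured points) and the other 7 members (grey points), in each library. All 5 near genes are below 0 in every vehicle library and above 0 in both DMXAA libraries, which follows from picking them for likeness to Ppp1r16b. The grey points, not picked for likeness, lie on both sides of 0 in each library.

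The estimate for Ppp1r16b stayed above 1 on the log2 scale under each of the 14 alternatives, all of which refit these same libraries. In the fit over all libraries, 122 of 16226 genes (0.752%) had an estimate above 1. Ppp1r16b was taken up for this difference, so its size and its place among all genes are a description and no test. The estimate was 1.44 without DMXAA library 1 and 1.01 without DMXAA library 2. With an offset for transcript length and GC content it was 1.17 (SE 0.20).

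**Figure D5:**
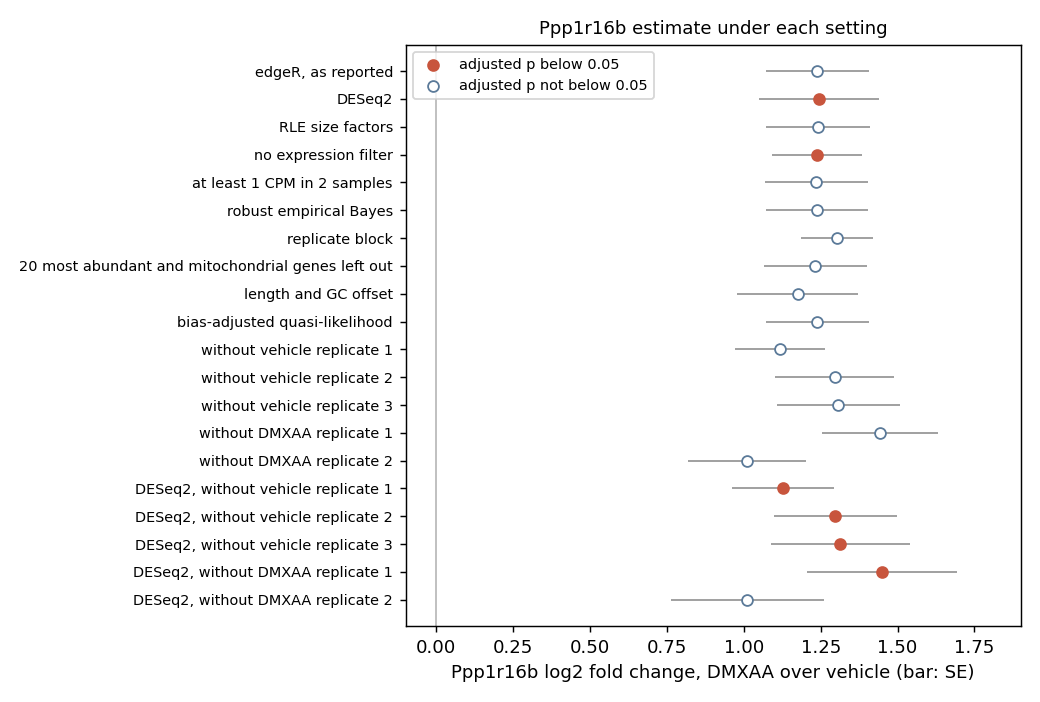
Log2 fold change of Ppp1r16b (horizontal axis, bars SE) under each setting, with filled points where the adjusted p was below 0.05. The estimates run from 1.01 to 1.45, and filled points are found for DESeq2 with all libraries, for 4 of the 5 DESeq2 fits that leave out a library, and for edgeR without an expression filter.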

How the data were processed

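Raw counts of reads, 1 whole number per gene and library, were deposited by the authors for Ensembl IDs, and library totals ran from 17667490 to 20264228. HISAT2, featureCounts, Subread, DESeq2 1.16.1 and build mm10 are named per the submitters' processing notes, while their roles, the annotation, strand use and multi-mapping reads were not given in the sources used here. The labels' protocols name 2 library kits without tying either to a sample, and a library batch was not tested. Columns were assigned by name, with CO read as control (vehicle), XA as the end of DMXAA and the digit as the replicate, a reading that no label states outright. GENCODE M21 gave symbols for 99.9% of IDs, positions and lengths.

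The test was edgeR 4.0.16's two-sided quasi-likelihood F test in R 4.3.3 on all genes, with TMM scaling, the default expression filter, group as the only term and Benjamini-Hochberg adjustment. CPM, log2 differences (DMXAA over vehicle) and intervals were computed from the counts. The biological coefficient of variation was 19.0%. For a gene with no reads the upper limit was 3 counts, or 0.149 to 0.171 CPM by library, from counting error alone. All pairs of libraries differed by more than sampling noise, with chi-square over degrees of freedom from 7.77 to 41.3. Alternatives were DESeq2 1.42.0, RLE scaling, other filters, robust estimation, a replicate block, removal of abundant genes, a length and GC offset and leaving out each library. The bias-adjusted fit, DESeq2 without each library and the longest-transcript lengths were chosen after seeing the data.

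Members and lists were chosen with earlier results of these data known. Genes named were the 8 members, up to 4 per list, by smallest unadjusted p (not all are reported), and the 5 nearest to Ppp1r16b, and others are marked as named after their values were seen. Protein sequences were not used here.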

Additional observations from a re-analysis of the deposited data

How the results depend on the processing

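The number of genes called over the table was 0 in edgeR as reported and 0 with RLE scaling, a 1 CPM filter, robust estimation, abundant genes left out, the length and GC offset or the bias-adjusted fit (chosen after seeing the data). It was 55 in DESeq2, 34 without an expression filter, 4 with the replicate block and 0 to 2 without 1 library. Without DMXAA library 1 or 2 the lone sample is assumed to vary like the vehicle group. The log2 fold change of Ppp1r16b was 1.24 and became called in DESeq2 (1.24, adjusted p 2.59e-06) and without an expression filter (1.24, adjusted p 0.00198). It was 1.30 with the replicate block (adjusted p 0.209) and 1.01 to 1.44 without 1 library, and the edgeR and DESeq2 adjusted p ran from 2.59e-06 to 0.99999 over its 14 alternatives. The deviations of same-numbered samples from their group means had correlations of 0.07 and 0.08 over genes (2 pairs). With 2 DMXAA libraries these deviations are equal and opposite, so both correlations rest on 1 DMXAA contrast and cannot exclude pairing. The numbers were not taken as pairs. The sign turned for Ppp1r12b in DESeq2 (0.0018). Without 1 library the ranges that crossed 0 were -0.14 to 0.075 for Ppp1r12a, -0.17 to 0.31 for Ppp1r12b, -0.13 to 0.034 for Ppp1cb, -0.027 to 0.17 for Ppp1cc, -0.98 to 0.12 for Acta2 and -0.27 to 0.17 for Mylk. With the length and GC offset the 7 members other than Ppp1r16b ran from -0.11 to 0.17, against -0.18 to 0.10 as reported. The cause was not tested. With single libraries left out, DESeq2 called 122 genes (vehicle 1), 175 (vehicle 2), 32 (vehicle 3), 17 (DMXAA 1) and 4 (DMXAA 2).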
